A study of Mus musculus with 8 samples.

Results

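The genes Slpi, Clu, Sprr1a, Ly6g6c, Anxa8, Plet1, Areg, Phlda1, Sfn and S100a6, 10 in all and known from wound repair and the fetal-like state of gut epithelium, were followed in a table of mRNA methylation differences in mouse colon. They were chosen by name from the authors' deposited table of m6A peaks that differ between Mettl14 knockout and control, where they account for 11 of 195 peaks and for 10 of 168 genes. Of these genes, 9 have 1 listed peak each and Plet1 has 2. Because only peaks that passed the authors' test are listed, the presence of each gene and its false discovery rate (FDR) chose it and are given as a description.

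N6-methyladenosine (m6A) is a methyl mark on adenosines inside mRNA. A complex of METTL3 and METTL14 writes it, mostly within a short consensus around an adenosine-cytosine pair, and reader proteins bound to it alter the stability and translation of the transcript. After injury, gut epithelium is known to leave its homeostatic programme for a while and to express genes that are otherwise typical of the fetal gut. Clusterin, encoded by Clu, marks a rare revival stem cell of the damaged mouse intestine, and amphiregulin, encoded by Areg, is a growth factor released by epithelium under repair.

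The cells were colonic epithelium from untreated mice of the C57BL/6 strain, 6 weeks after birth. Controls carried the Mettl14 f/f genotype, and knockout mice carried Mettl14 f/f together with CDX-cre. By genotype, both groups thus share the floxed alleles and differ by the transgene. Its name points to a promoter of the Cdx family of intestinal homeobox genes. A control with Cre alone was not analysed here, nor was the sex of the mice. Each genotype had 3 immunoprecipitates, made with an anti-m6A antibody, and 1 input of total RNA, 8 samples in all. The labels do not say whether the replicates were separate animals or pools.

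All enrichments, fold changes and FDRs that follow were computed by the authors and copied from the authors' deposited table, where each peak has a single value. Values of single samples were not analysed here, so depth is unknown and a peak carries no error. Fold enrichment divides the immunoprecipitate by the input on a linear scale. The genotype difference is a log2 fold change, and the numerator is not stated. Positive likely means knockout over control, since the column names are those of exomePeak, which divides the treated arm by the untreated one, and the design text names the deletion as the manipulation. Altered methylation and altered RNA abundance cannot be told apart in these values. In bulk samples, a change in the number of cells of a type and a change in RNA per cell cannot be told apart either. Listed peaks of the X chromosome genes Xist (log2 fold changes of -2.61, -2.43 and -2.83) and Tsix (-2.85) were negative in the authors' deposited table. Whether the groups differed in sex was not tested.

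All 11 peaks of the 10 genes had a positive log2 fold change, against 61.5% of all listed peaks; as the genes were chosen with these values known, nothing is read from that share. Their log2 fold changes ran from 0.54 in S100a6 to 3.43 in Slpi. The median was 1.07, against 0.74 over all 195 listed peaks and 1.36 over the 120 positive ones. Slpi, Clu and Sprr1a, 3 peaks in all, were above 2; Ly6g6c, Anxa8, the 5′ peak of Plet1 and Areg, 4 peaks, lay between 1 and 2; the 3′ peak of Plet1, Phlda1, Sfn and S100a6, another 4 peaks, lay under 1. At a log2 fold change of at least 1 stood 7 of the 11 peaks (63.6%), beside 76 of the 120 positive listed peaks, or 39.0% of all 195. An FDR of at most 0.01 was reached by 8 of the 11 (72.7%). It was reached by 64 of the 120 positive listed peaks, or 32.8% of all 195. The shares of all 195 have the negative peaks in the denominator, and nothing is read from these counts either. The weakest FDRs belonged to Areg (0.044) and S100a6 (0.043), just inside the limit of 0.05, and peaks outside it were not analysed here.

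**Figure D1:**
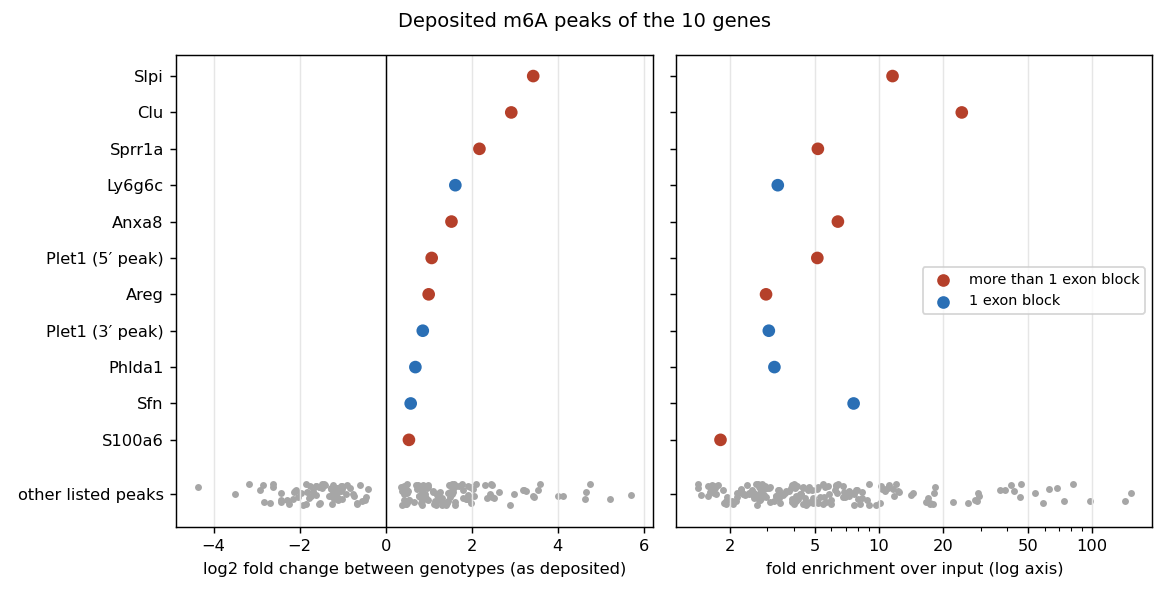
Deposited log2 fold change between genotypes (left) and fold enrichment over input (right, log axis) of each peak of the 10 genes, with all other listed peaks in grey below; each point is 1 peak and has no error bar, as the table holds no replicate values. The 11 peaks lie between 0.54 and 3.43 on the left and between 1.81-fold and 24.5-fold on the right, and the blue points are the 4 peaks of 1 exon block.

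Among the secreted products, the antiprotease gene Slpi had the largest difference. SLPI inhibits neutrophil elastase and protects mucosal surfaces. In the authors' deposited table its peak was enriched 11.6-fold over input and had a log2 fold change of 3.43, a 10.8-fold difference (FDR 6e-05). It ranked 11 among the 195 listed peaks by log2 fold change and 36 by enrichment. The peak lay on chromosome 2, 164355011 to 164356361 (mm10, minus strand), and spanned 55.4% of the gene. It was cut into 3 exon blocks of 174, 162 and 15 nt, counted from the 5′ end, so that its 351 nt of exon blocks made up 14.4% of the gene span. The first block began 146 nt inside the 5′ end of the gene and the last ended 941 nt before the 3′ end.

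Clu, which encodes the secreted chaperone clusterin, had the highest enrichment of the 11 peaks. Its peak was 24.5-fold over input in the authors' deposited table, rank 21 of the list, with a log2 fold change of 2.92, a 7.57-fold difference (FDR 5.5e-07). It lay on chromosome 14, 65968572 to 65974900, plus strand. Its 4 blocks of 117, 121, 149 and 58 nt were the most of any peak among the 10 genes. They began 89 nt after the start of the gene span and stopped 6648 nt before its end, so the peak covered the first part of the gene and 48.4% of the span. The blocks themselves made up 3.41% of it.

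Areg, which encodes a ligand of the EGF receptor, had a smaller and less certain difference. The authors' deposited table gave it 2.96-fold enrichment and a log2 fold change of 1.0, a 2.0-fold difference, at an FDR of 0.044 (rank 188 of 195). Its 2 blocks, 69 and 172 nt long, lay 2363 nt apart on chromosome 5, 91141057 to 91143660, plus strand. They began 1458 nt into the gene and ended 4772 nt before its 3′ end, and the peak spanned 29.5% of the gene. On a list of 13 EGF receptor ligands and receptors, including Egf, Tgfa, Ereg, Hbegf and Egfr, Areg was the 1 gene with a listed peak. Areg was chosen from the listed genes, so its own place there was fixed in advance. Of the other genes on that list 0 were listed, beside 0.74% of all RefSeq protein-coding genes, and nothing is read from this count.

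At the cell surface, Plet1 had a peak at each end of its gene. Plet1 encodes a glycosylated surface protein found on progenitors of the hair follicle and other epithelia in the mouse. In the authors' deposited table the 5′ peak had 5.15-fold enrichment, a log2 fold change of 1.07 and an FDR of 0.00026, and the 3′ peak had 3.05-fold enrichment, a log2 fold change of 0.86 and an FDR of 2.2e-05. The log2 fold changes differed by 0.21, and with no error for either peak that difference was not tested. The 5′ peak had the strongest evidence of enrichment of the 11, with a log10 p-value of -78.4, against -31.3 for the 3′ peak. So the peak with the larger enrichment had the larger fold change but the less extreme FDR of the genotype difference.

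The 5′ peak of Plet1 started at the first base of the gene span (chromosome 9, 50494525 to 50499141, plus strand). It consisted of a block of 222 nt and, 4348 nt further on, a block of 47 nt. The 3′ peak was 1 block of 685 nt at 50504538 to 50505222, ending 417 nt before the end of the gene. A stretch of 5396 nt lay between the peaks. Together their blocks held 954 nt, or 8.58% of the span of 11115 nt.

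The antisense gene Plet1os had a listed peak that touched both Plet1 peaks. Plet1os is a long noncoding RNA in RefSeq, transcribed from the minus strand (chromosome 9, 50488799 to 50504805), and its span shares 10281 nt with that of Plet1. The authors' deposited table gave its peak 2.89-fold enrichment, a log2 fold change of 0.99 and an FDR of 0.016. Of its 236 nt of exon blocks, 22 nt fell on the second block of the 5′ Plet1 peak and 185 nt inside the 3′ Plet1 peak, 87.7% in all. Seen from Plet1, the shared bases were 8.18% of the 5′ peak and 27.0% of the 3′ peak. The log2 fold change of Plet1os, 0.99, lay between those of the Plet1 peaks. The library kit preserves strand per the labels, and no source used here says whether peaks were counted by strand, so shared reads between Plet1 and Plet1os were not tested. Without both Plet1 peaks, the median log2 fold change of the remaining 9 peaks was 1.53. Both Plet1 peaks lay at or below the median of all 11 peaks (1.07), so leaving them out could not lower it. The sign of the remaining 9 was fixed in advance, as every peak of these genes was positive.

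**Figure D2:**
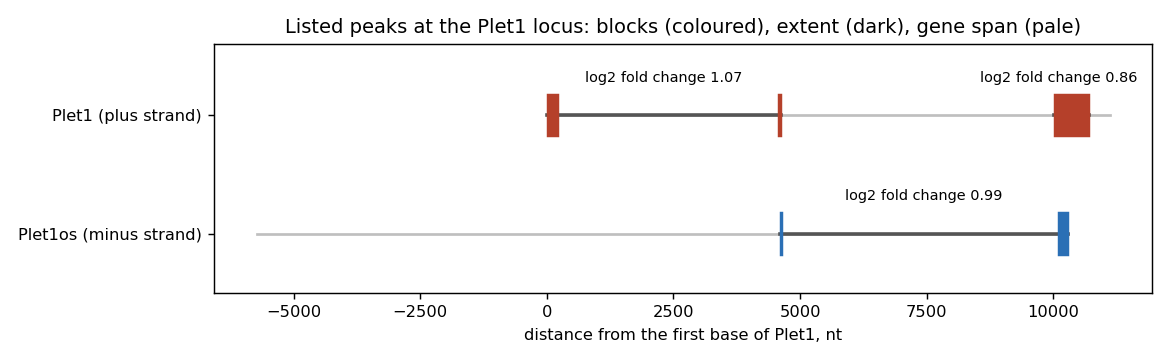
Listed peaks of Plet1 (red, upper line) and of the antisense gene Plet1os (blue, lower line) by distance in nt from the first base of Plet1; thick boxes are exon blocks, dark lines the extent of a peak and pale lines the gene spans, with the deposited log2 fold change beside each peak. The Plet1os blocks of 51 and 185 nt sit over the end of the 5′ Plet1 peak and inside the 3′ Plet1 peak.

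Ly6g6c, the other surface gene, belongs to the Ly6 family of small cysteine-rich membrane-anchored proteins and lies in the major histocompatibility complex. Its peak had a log2 fold change of 1.62, a 3.07-fold difference, with 3.36-fold enrichment and an FDR of 0.023 in the authors' deposited table. It was a single block of 241 nt on chromosome 17, 35069658 to 35069898, plus strand. It covered 8.85% of the gene and ended 150 nt before its 3′ end. By log2 fold change it was the largest of the 4 peaks of 1 block, and by FDR it was the weakest of those 4.

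The calcium-binding genes Anxa8 and S100a6 lay far apart in size. Annexin A8 binds phospholipids of membranes in a calcium-dependent way. Its peak had a log2 fold change of 1.53, a 2.89-fold difference, with 6.43-fold enrichment and an FDR of 0.0048 in the authors' deposited table. It began at the first base of the gene span on chromosome 14 (34085979 to 34090686, plus strand) with blocks of 98, 91 and 80 nt and left the last 9885 nt of the gene uncovered. The blocks made up 1.84% of the span, the lowest share among the 11 peaks. S100a6, or calcyclin, a small EF-hand protein of proliferating cells, had the lowest log2 fold change and the lowest enrichment of the 11 peaks. In the authors' deposited table its log2 fold change was 0.54, a 1.45-fold difference (rank 105 of 195), its enrichment 1.81-fold (rank 182 of 195) and its FDR 0.043. Its 3 blocks of 124, 162 and 74 nt were spread over 76.4% of the gene at chromosome 3, 90613103 to 90614264, plus strand.

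Phlda1 and Sfn, which encode regulators inside the cell, had small differences with firmer FDRs. Phlda1 encodes a pleckstrin homology-like protein that has been used as a marker of epithelial stem cells in human skin and intestine. The authors' deposited table gave it a log2 fold change of 0.69, a 1.61-fold difference, with 3.24-fold enrichment and an FDR of 0.0013. Its peak was 1 block of 622 nt on chromosome 10, 111506996 to 111507617, plus strand, which began 710 nt into the gene and ended 1032 nt before its end. Sfn encodes stratifin, an epithelial member of the phosphoserine-binding adaptor family that holds the cell cycle after DNA damage. It had a log2 fold change of 0.58, a 1.5-fold difference, with 7.62-fold enrichment and an FDR of 0.0018 in the authors' deposited table. Its single block of 1494 nt on chromosome 4, 133600556 to 133602049, minus strand, ran from 119 nt inside the 5′ end to the last base of the gene. At 92.6% of the gene span, it was the peak of the 195 listed whose exon blocks filled the largest share of its gene; Lrg1 came next with 59.6%.

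Sprr1a, a small proline-rich precursor of the cornified envelope, had the smallest FDR of the genotype difference in the authors' deposited table (4e-21). Its log2 fold change of 2.18, a 4.53-fold difference, ranked 27 of 195, and its enrichment of 5.18-fold ranked 82. The peak reached from the first to the last base of the gene span, chromosome 3, 92483954 to 92485881, minus strand. It held a block of 32 nt at the 5′ end and a block of 758 nt at the 3′ end, 41.0% of the span. The first 32 transcribed bases of Sprr1a and the first 50 of Plet1 and Anxa8 were the only stretches of peak for which sequence was at hand, among the 8 of 10 genes with a RefSeq start-site sequence (GRCm38.p6, the assembly behind mm10). They were searched on the transcribed strand for the m6A consensus NNACN, with A, G or T first, A or G second and A, C or T last, 18 words in all. The stretch of Sprr1a held 1 such word and that of Plet1 held 2, while these letters were not in the stretch of Anxa8. The sites are shown with the words in capitals, 30 bases each, as the parts of listed peaks in which a methylated adenosine could be sought; a match is not a measured site.
Sprr1a, chr3:92485852-92485881, minus strand: caacagaGAACCtgctcttctctgagtatt
Plet1, chr9:50494533-50494562, plus strand: caggccctgcaacccAAACAgcccgGGACC
Of all 32851 RefSeq start-site windows, 54.4% hold at least 1 word of the consensus in their first 50 transcribed bases, so a match at this place is common.

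The peaks of the 10 genes were grouped in 3 by the midpoint of their extent along the gene. Midpoints between 16.1% and 33.7% from the 5′ end belonged to Anxa8, the 5′ peak of Plet1, Clu, Areg and Slpi (5 peaks, log2 fold changes 1.0 to 3.43). Those of Phlda1, Sprr1a, S100a6 and Sfn fell between 43.2% and 53.7% (4 peaks, 0.54 to 2.18). A midpoint there does not place the peak in the middle of the gene. The peaks of Sprr1a, Sfn and S100a6 extended over 100%, 92.6% and 76.4% of their genes. Ly6g6c and the 3′ peak of Plet1 had midpoints at 90.1% and 93.2% (2 peaks, 1.62 and 0.86). The median midpoint was at 43.2%, beside 46.8% for the 109 positive peaks of other genes and 65.7% for all listed peaks. All 11 peaks lay inside the RefSeq span of their gene. A median of 41.5% of the span was covered, against 35.5% for the other positive peaks and 15.0% for all listed peaks. These shares include the introns between blocks; the exon blocks alone filled a median of 8.85% of the span, against 5.54% and 3.24%. The spans were short, with a median of 2724 nt over the 11 peaks against 8716 nt for the other positive ones, and no test was made of any of these differences.

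**Figure D3:**
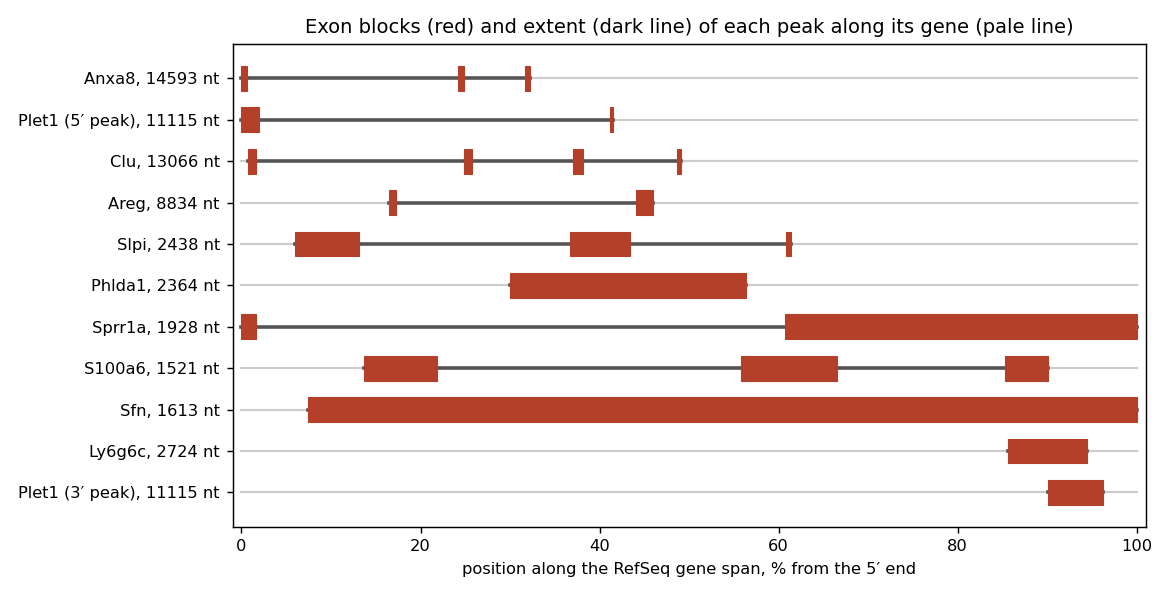
Position of each peak along the RefSeq span of its gene, in % from the 5′ end, with the length of the gene in nt beside the name; red boxes are exon blocks, dark lines the extent of the peak and pale lines the gene. The peaks of Anxa8, Plet1 (5′ peak), Clu, Areg and Slpi have their midpoints in the first 33.7%. Those of Sfn and Sprr1a extend to the last base of their genes, with a gap between the 2 blocks of Sprr1a. Ly6g6c and the 3′ peak of Plet1 lie near the 3′ end.

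More than 1 exon block was found in 7 of the 11 peaks (63.6%). It was found in 52.3% of all listed peaks, but in 83 of the 109 positive peaks of other genes. Peaks of 3 or more blocks numbered 4 (36.4%), the same share as in all listed peaks (36.4%). The 7 peaks of more than 1 block had a median log2 fold change of 1.53, with a range of 0.54 to 3.43. The 4 single-block peaks had a median of 0.78, with a range of 0.58 to 1.62. The ranges overlapped, as S100a6, with 3 blocks, was the lowest of all. Among the 109 positive peaks of other genes the order was the other way, with medians of 1.23 for 83 peaks of more blocks and 1.62 for 26 of 1 block.

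Within the 10 genes, higher enrichment went with a larger genotype difference. The Spearman rho over the 11 peaks was 0.65, and 0.62 over 10 genes with the Plet1 peaks averaged. Over the other 109 positive peaks it was 0.53. Both quantities come from the same immunoprecipitates and inputs, and only peaks that passed the authors' test are listed, so the coefficients describe the list. Sfn departed most from this order, with the third highest enrichment of the 11 and the second lowest log2 fold change. The median enrichment was 5.15-fold, beside 4.43-fold over all listed peaks, and 6 of the 11 were above that value.

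**Figure D4:**
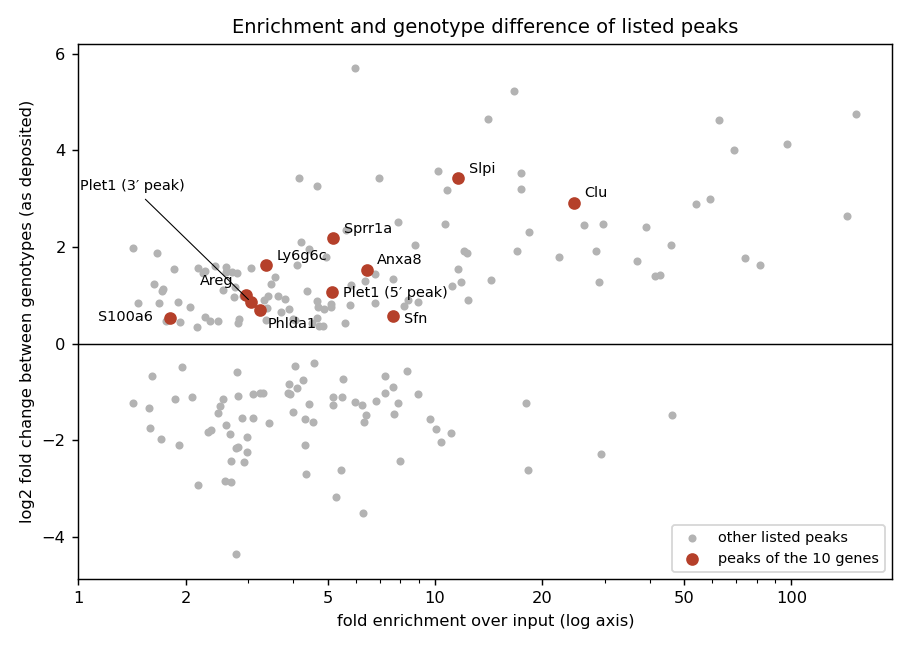
Deposited fold enrichment over input (log axis) against the log2 fold change between genotypes for all 195 listed peaks, with the 11 peaks of the 10 genes in red and labelled. Slpi and Clu sit at the upper right of the red points, at 11.6-fold and 24.5-fold, and Sfn lies low at 7.62-fold with a log2 fold change of 0.58.

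Other genes of the same programme were counted next. Of 48 further genes of regenerating or fetal-like gut epithelium, among them Ly6a, Anxa1, Il33, Ereg, Ccn1 and Ccn2, 3 had a listed peak, or 6.25%, beside 0.74% of all RefSeq protein-coding genes. The list was written with earlier results known and many annotated genes may have had no peak to test, so nothing is read from that difference. Of these genes 3 were positive and 0 negative, where 61.5% of all listed peaks were positive. As the list was written with earlier results known, nothing is read from these signs either. Plaur, the urokinase receptor, had a log2 fold change of 2.46 in the authors' deposited table with 26.2-fold enrichment (FDR 0.0012, 5 blocks). Basp1, a membrane-bound growth cone protein, had 2.05 with 46.0-fold enrichment (FDR 0.023). Reg3g, a lectin that kills Gram-positive bacteria, had 2 peaks in the authors' deposited table at log2 fold changes of 1.98 and 1.49 with 1.42-fold and 2.59-fold enrichment. Of 15 Hippo pathway and TEAD genes, which include Yap1, 0 were listed, and of 17 genes of m6A writers, erasers and readers also 0. A gene that is not listed either did not pass or was not tested, and the table does not separate these cases.

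Several of the 10 genes are also active in squamous epithelium, which borders the colon at the anal canal. Of 30 squamous markers, such as Krt5, Krt14, Trp63 and Ivl, 1 was listed, Tchh (trichohyalin), with log2 fold changes of 4.13 and 2.90 and enrichments of 97.4-fold and 54.1-fold in the authors' deposited table. Of 20 colonic epithelial markers 0 were listed, of 20 immune markers 0, and of 20 stromal, endothelial and neural markers 1, Col1a1, at 1.61. Myeloid genes outside that immune list were listed, though, and all those named here, which were chosen after their values were seen, were positive in the authors' deposited table. The complement genes C1qa, C1qb and C1qc were at 1.92, 2.36 and 2.47, the macrophage gene Mpeg1 at 2.42 and 1.79, the chemokine receptor gene Ccr1 at 2.99 and the phagocyte oxidase gene Ncf4 at 4.65 and 3.58. The table holds no expression level, so the labelled cell type could not be checked, and the part of other cells in these values was not tested.

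Further listed peaks lay close to Sprr1a, S100a6, Ly6g6c, Plet1 and Sfn. Sprr1a and S100a6 lie 1.87 Mb apart on chromosome 3, in the cluster of epidermal differentiation genes, with Tchh 0.959 Mb beyond Sprr1a. Tnfaip8l2, 2.65 Mb from Sprr1a, was positive at 1.78 in the authors' deposited table. Within 3 Mb of Ly6g6c on chromosome 17 lay peaks of 5 other genes, 5 positive and 0 negative, where 61.5% of all listed peaks were positive: H2-D1 at 0.49, Trim40 at 0.78, Trim15 at 0.91, Ubd at 1.71 and H2-M2 at 1.91. Around Plet1 the signs were mixed, since Dixdc1, 0.16 Mb from the 3′ peak, was at -1.62 and Arhgap20 at -1.86 and -1.48. Sh3bgrl3, 0.526 Mb from Sfn, was at 1.09 in the authors' deposited table.

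The start sites of the genes were also read, as a description of their sequence that bears on no peak value. The 250 bases before the start were searched on both strands for TATAAA (the TATA box), TGANTCA (the AP-1 site), GGAATG (the TEAD site) and, after the Areg window had been seen, TGACGTCA (the cyclic AMP response element). TATAAA was found before 4 of 8 genes, Sprr1a, Areg, Plet1 and Ly6g6c, against 12.4% of all 32851 windows. TGANTCA was found before 2, Sprr1a and Plet1 (6.75% of all), TGACGTCA before Areg (1.55% of all), and GGAATG before 0 of 8 (12.6% of all). None of the matches overlapped. The windows with a match are shown from RefSeq (GRCm38.p6) with the matches in capitals. For Areg and Ly6g6c only the last 100 of the 250 bases are shown. The matches describe letters, not bound factors, and with 8 windows of chosen genes nothing is read from the shares.
Sprr1a, chr3:92485882-92486131, minus strand: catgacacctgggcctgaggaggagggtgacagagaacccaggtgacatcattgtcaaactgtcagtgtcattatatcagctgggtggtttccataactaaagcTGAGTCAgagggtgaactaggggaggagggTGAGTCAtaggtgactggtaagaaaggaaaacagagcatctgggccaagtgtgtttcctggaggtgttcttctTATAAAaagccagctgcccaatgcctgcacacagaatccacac
Plet1, chr9:50494275-50494524, plus strand: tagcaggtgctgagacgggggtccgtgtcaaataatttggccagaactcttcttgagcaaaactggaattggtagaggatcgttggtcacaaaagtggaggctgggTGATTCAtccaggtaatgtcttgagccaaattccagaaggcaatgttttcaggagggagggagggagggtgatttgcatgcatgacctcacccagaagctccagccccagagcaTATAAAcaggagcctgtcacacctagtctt
Areg, chr5:91139499-91139598, plus strand: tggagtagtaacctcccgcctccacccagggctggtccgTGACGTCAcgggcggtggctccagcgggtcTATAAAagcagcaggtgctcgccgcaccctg
Ly6g6c, chr17:35067225-35067324, plus strand: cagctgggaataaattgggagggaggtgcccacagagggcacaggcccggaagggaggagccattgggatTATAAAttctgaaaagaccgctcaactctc
Sprr1a held the AP-1 letters at 2 places, 146 and 116 bases before the start, and TATAAA 43 bases before it. In Areg, Plet1 and Ly6g6c the TATAAA began 31, 30 and 30 bases before the start. No promoter sequence is shown for Slpi, S100a6, Sfn and Anxa8, whose windows held none of these letters, nor for Clu and Phlda1.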

How the data were processed

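The deposited file is a table of 195 peaks from the authors' comparison of m6A immunoprecipitates and inputs of Mettl14 knockout and control colonic epithelial cells. Per the submitters' processing notes, the tools were R 3.6, HOMER 4.10.0, HISAT2 2.1.0 and Trim Galore 0.6.5 on mm10, with no role given. The peak caller and the way replicates and inputs were combined are not given in the sources used here. Deposited for each peak, per the file headers, are the p-value of enrichment in a score column, the log10 of that p-value and of its FDR, the fold enrichment over input as a linear ratio, and, for the genotype difference, the log10 of a p-value and an FDR and a log2 fold change. FDRs were turned back from log10. Read counts and depth are unknown.

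The genes and lists were chosen with earlier results of these data known, and no test was run on them; counts and medians stand beside those of all listed peaks. All 10 genes are named with every peak, as are listed genes of the 8 companion lists and listed genes within 3 Mb; 1 gene of a companion list is not reported here. Names were matched to RefSeq symbols of GRCm38.p6 (10 of 10); coordinates are 1-based. Position and coverage refer to the gene span, introns included, as exon annotation was not used here. Alternatives were an FDR of at most 0.01, a log2 fold change of at least 1, the median enrichment, 1 value per gene, 3 or more blocks, block length and merging of overlapping peaks. Block arithmetic and motif search were tested on made-up sequences. Python 3.11.15, pandas 2.3.3, numpy 2.4.6, scipy 1.17.1 and matplotlib 3.10.9 were used.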

Additional observations from a re-analysis of the deposited data

How the results depend on the processing

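All 11 peaks kept a positive sign under each alternative, by construction, since filters only remove peaks. Positive peaks numbered 8 at an FDR of at most 0.01, 7 at a log2 fold change of at least 1 and 6 at the median enrichment of the list or above. The median log2 fold change of 1.07 became 1.30 at the stricter FDR, 1.62 at the minimum fold change, 1.26 with 1 value per gene and 1.53 without the Plet1 peaks, an alternative added after seeing the data. The median enrichment of 5.15-fold became 5.80, 5.18, 4.64 and 5.18-fold in the same order. The median share of the gene covered, 41.5%, became 45.0% at the stricter FDR, 48.4% without the Plet1 peaks and 8.85% when exon blocks replaced the genomic extent, which drops the introns between blocks. Peaks of at least 3 blocks numbered 4, against 7 of more than 1. Of the genes on the list of 48, 2 passed the stricter FDR. No 2 peaks of 1 strand overlapped, so merging left 11. No paired analysis was possible because values of single samples were not at hand, and leaving out a replicate was not run for the same reason. Read counts are unknown, so no limit from depth is given.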
